A study of Mus musculus with 12 samples.

Results

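The galectins *Lgals1*, *Lgals3*, *Lgals4*, *Lgals8*, and *Lgals9* were followed in mouse Th9 cells, as 5 of the 32051 genes of the RNA-seq table. They were taken by symbol, and the set was chosen by the measured FPKM of *Lgals3*, which was lower with fatostatin both with and without EpA. The 2 contrasts of fatostatin therefore describe these genes and do not test them. Naive CD4+ T cells came from spleens of mice aged 6 to 8 weeks, for which the authors' methods name C57BL/6J or OT-II mice. They were stimulated with anti-CD3 and anti-CD28 and polarized with IL-4 (10 ng/mL), TGF-β (1 ng/mL), and antibodies to IL-12 and IFN-γ. RNA was taken on day 4. The 4 groups of 3 libraries were DMSO, EpA (10 μM), fatostatin in DMSO (5 μM), and EpA with fatostatin at the same doses. EpA is a cyclic lipopeptide of the surfactin class made by an endophytic fungus, and fatostatin is an inhibitor of SREBP, the transcription factors that switch on cholesterol and fatty acid synthesis. All groups were Th9-polarized cultures, with no unpolarized culture among them. The labels do not say whether the replicates came from separate mice, so the tests measure the spread between these libraries.

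Galectins are lectins that bind β-galactosides, the galactose-containing ends of glycans on proteins and lipids. They are made in the cytosol without a classical signal peptide and act on both sides of the plasma membrane. Outside the cell they cross-link glycoproteins on T cells and so affect adhesion, receptor clustering, and survival. Inside it they meet signaling proteins and mark endosomes or lysosomes whose membranes have been broken. Galectin-1 (*Lgals1*) is a homodimer of single domains, galectin-3 (*Lgals3*) joins 1 domain to a collagen-like tail through which it forms multimers, and galectin-4, galectin-8, and galectin-9 carry a pair of domains on 1 chain.

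The coding sequence that these genes share is shown because it marks what makes each of them a galectin. Each run starts at the histidine codon of the conserved histidine, any residue, asparagine, proline, arginine motif and ends at the arginine codon of the glutamate, any residue, arginine motif. The capitals mark the codon of the tryptophan that stacks against galactose. A search for this pattern, with 10 to 40 residues between its conserved parts, found 6 stretches, 1 each in *Lgals1*, *Lgals3*, *Lgals4*, and *Lgals8* and 2 in *Lgals9*. Every stretch lay within 1 coding exon of the GENCODE annotation of GRCm38.
*Lgals1* (chr15:78929676-78929765, plus strand): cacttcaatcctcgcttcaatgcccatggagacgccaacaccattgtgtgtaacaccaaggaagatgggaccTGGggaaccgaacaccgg
*Lgals3* (chr14:47384642-47384728, plus strand): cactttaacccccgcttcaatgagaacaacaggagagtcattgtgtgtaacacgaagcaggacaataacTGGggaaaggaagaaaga
*Lgals9*, first domain (chr11:78973060-78973140, minus strand): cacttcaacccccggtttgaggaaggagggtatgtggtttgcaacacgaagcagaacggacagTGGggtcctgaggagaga
*Lgals9*, second domain (chr11:78965737-78965814, minus strand): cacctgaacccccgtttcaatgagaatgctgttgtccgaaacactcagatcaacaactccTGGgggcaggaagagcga
*Lgals8* (chr13:12447189-12447266, minus strand): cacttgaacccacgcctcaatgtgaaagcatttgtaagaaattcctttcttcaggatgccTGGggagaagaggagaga
*Lgals4* (chr7:28841191-28841265, plus strand): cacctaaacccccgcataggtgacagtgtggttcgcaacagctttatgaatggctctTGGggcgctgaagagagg
The 15 pairs of stretches were 49.4% to 67.0% identical in an end-to-end alignment. The first domain of *Lgals9* and *Lgals3* made the closest pair, and *Lgals3* and *Lgals4* the most distant. *Lgals1* was 64.4% identical to *Lgals3*, and the stretches in *Lgals9* were 60.5% identical to each other. A domain that this pattern did not match was not looked for by other means.

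The libraries held 35590839 to 43144185 reads on genes, a ratio of 1.21 between the deepest and the shallowest, where both mates of a fragment appear to count as reads. The label of T cells held, since all 8 T cell markers had a mean above 1 FPKM (fragments per kilobase of gene length, scaled to library depth), with a summed level of 741 to 798 FPKM. Of 12 macrophage and monocyte markers, 10 had a mean below 0.1 FPKM, *C1qa* and *C1qb* were at 0 in all 12 libraries, and the summed level was 1.28 to 2.93 FPKM. The 8 dendritic cell markers summed to 1.54 to 1.81 FPKM with DMSO, 2.98 to 3.66 with EpA, 2.09 to 2.35 with fatostatin, and 5.31 to 5.71 with both. *Clec9a*, *Siglech*, and *Cd209a* of this list were at 0 in all 12 libraries, and the chemokine *Ccl17*, which limma called higher in all 4 comparisons, had means of 0.99, 2.59, 1.54, and 4.82 FPKM in the same order. The part of such cells in the galectin values was not tested. The B cell markers summed to 5.25 to 8.70 FPKM and the neutrophil and mast cell markers to 1.05 to 1.98 FPKM. The 6 CD8 and NK cell markers summed to 43.4 to 48 FPKM with DMSO, 30.5 to 32.7 with EpA, 31.3 to 36.0 with fatostatin, and 23.0 to 26.2 with both. *Ncr1*, *Klrb1c*, and *Klra4* of this list had means below 0.1 FPKM, and *Gzma*, a granzyme, made up most of the sum. In bulk RNA, fewer cells of a type and less RNA per cell cannot be told apart.

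The galectins kept 1 order in every group, with *Lgals1* highest, then *Lgals9*, *Lgals3*, *Lgals8*, and *Lgals4*. No library of a gene overlapped with a library of the next gene in that order in any group. Compared on the FPKM scale, which is per length, *Lgals1* stood 9.28 to 16 times above *Lgals9* and ranked 33rd of all genes by its mean of 746 FPKM. *Lgals9* ranked 803rd with a mean of 60.8 FPKM, *Lgals3* 4109th with 12, *Lgals8* 7602nd with 3.82, and *Lgals4* 9112th with 1.99. The gap between *Lgals3* and *Lgals8* narrowed in each treated group: *Lgals3* was 5.28 times the level of *Lgals8* with DMSO, 4.19 times with EpA, 1.52 times with fatostatin, and 1.32 times with both. *Lgals8* stood 2.24 times above *Lgals4* with DMSO and 1.65 to 2.04 times in the treated groups. *Lgals1* made up 88.3% to 92% of the galectin FPKM of a library, summed over these 5 genes and *Lgals2*, *Lgals7*, and *Lgals12*.

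**Figure D1:**
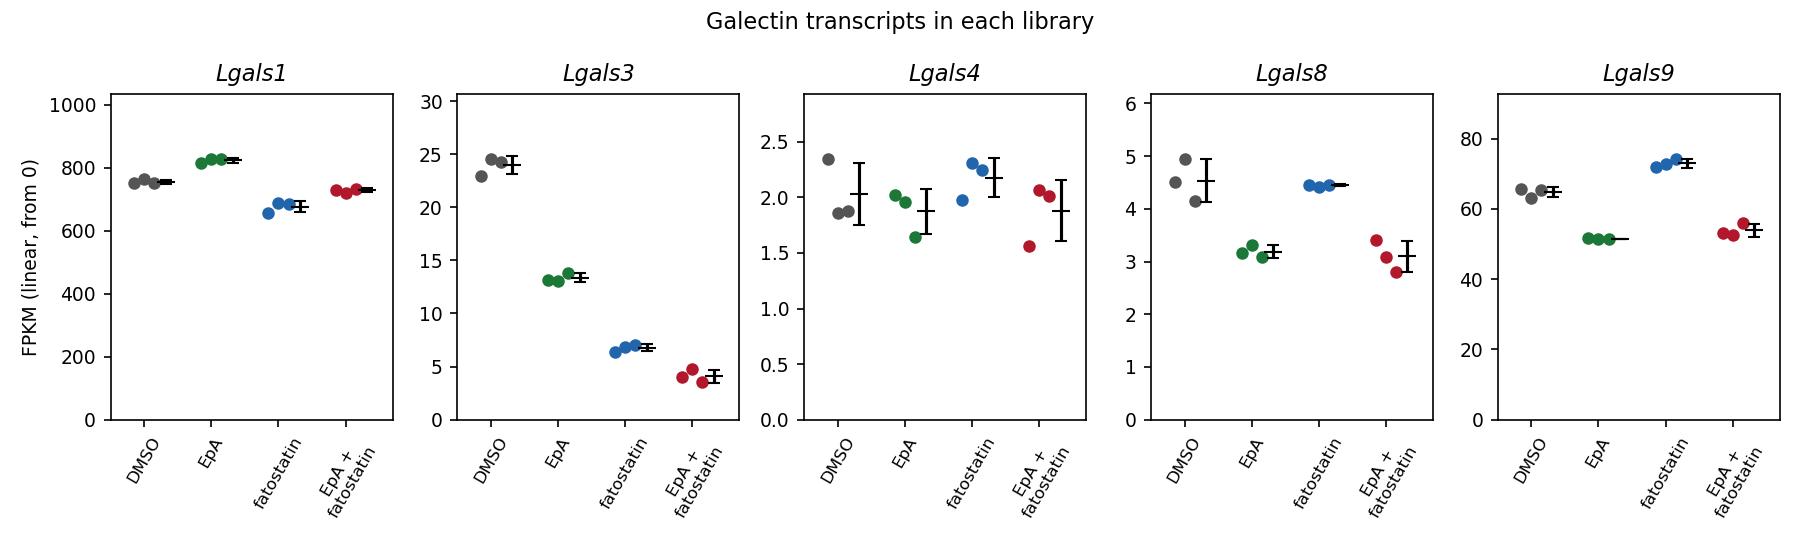
FPKM on a linear axis from 0 for each galectin in the 4 groups. Each dot is 1 of 3 libraries, and the black mark beside them is the mean with its SD. *Lgals3* steps down from 22.99 to 24.58 FPKM with DMSO to 3.51 to 4.74 with both compounds, and *Lgals8* and *Lgals9* are low in both groups that received EpA.

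To compare what each compound did to these genes, log2(FPKM + 0.1) was fitted with limma over the 13733 genes whose mean reached 0.1 FPKM. Adjusted p-values are Benjamini-Hochberg values over all those genes, and a gene was called when this value was below 0.05. EpA against DMSO called 4 of the 5 galectins, 1 higher and 3 lower, where 27.4% of all genes were called, 14.3% higher and 13.1% lower. EpA with fatostatin against fatostatin also called 1 higher and 3 lower, where 29.5% of all genes were called, 16.2% higher and 13.3% lower. With median ratio scaling 48.7% of the calls of the second comparison over all genes were higher, in place of 54.8%. *Lgals3* alone was also past a change of 1.5-fold in each of the 2 comparisons, in both cases downward, as were 1.94% and 1.86% of all genes. The libraries did not overlap for the same 4 galectins in each comparison, as for 42.4% and 41.4% of all genes. In the 2 comparisons of fatostatin, *Lgals1* and *Lgals3* were lower and *Lgals9* higher with no overlap of the libraries. Libraries did not overlap for 31.3% of all genes for fatostatin against DMSO and for 33.3% for both compounds against EpA, and the choice of the set used these contrasts. The comparisons share libraries (DMSO, for instance, is the control of both single compounds), so their values are set side by side and were not correlated.

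**Figure D2:**
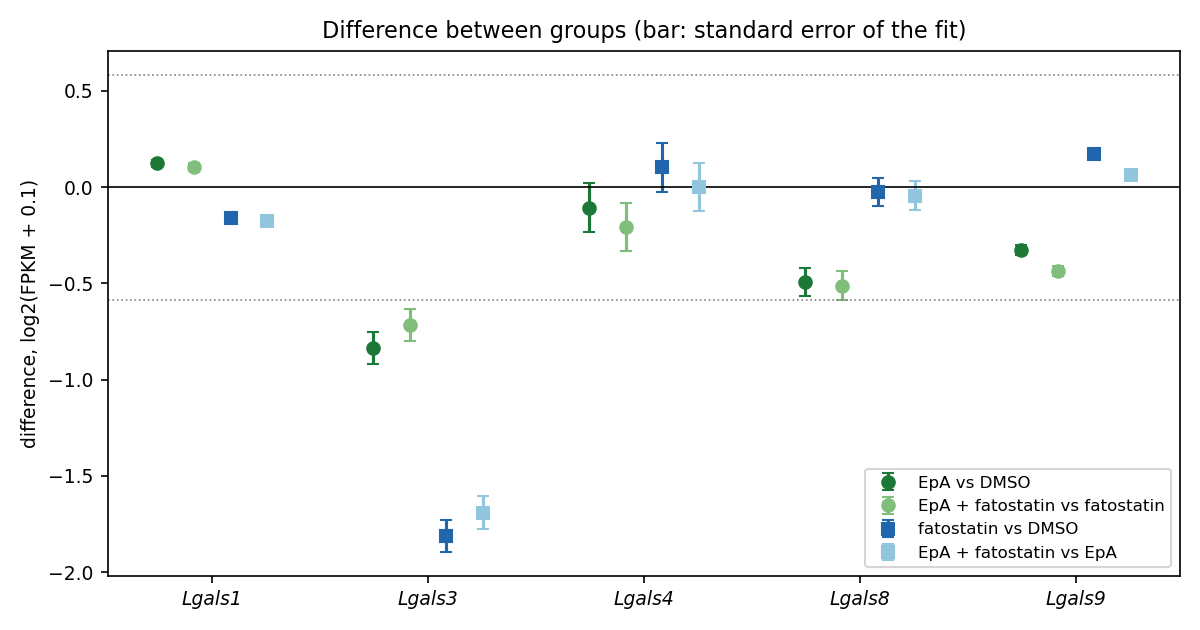
Difference between groups on the log2(FPKM + 0.1) scale for each galectin, with circles for the comparisons of EpA, squares for those of fatostatin, and bars for the standard error of the fit. Dotted lines mark a change of 1.5-fold. *Lgals3* lies at -0.84 and -0.72 in the circles and at -1.81 and -1.69 in the squares. *Lgals8* and *Lgals9* lie between -0.51 and -0.33 in the circles and between -0.04 and 0.17 in the squares.

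*Lgals3*, at chr14:47367751-47386160 on the plus strand, encodes galectin-3, which forms lattices with branched N-glycans at the T cell surface. Its level was 22.99, 24.58, and 24.27 FPKM with DMSO (mean 23.9 ± 0.841, SD, n = 3). It was 13.16, 13.07, and 13.86 FPKM with EpA (13.4 ± 0.427). With fatostatin it was 6.39, 6.86, and 7.02 FPKM (6.76 ± 0.325), and with both compounds 4.05, 4.74, and 3.51 FPKM (4.10 ± 0.617). The 4 groups did not overlap, and each step down the order DMSO, EpA, fatostatin, both was larger than the range of a group. These values rest on 267 to 1961 reads per library.

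EpA lowered *Lgals3* by 0.84 on the log2 scale against DMSO, to 0.56 of its level (SE 0.0837, 95% CI -1.02 to -0.65, limma adjusted p = 2.58e-05). In the presence of fatostatin, the level fell by 0.72 with EpA (SE 0.0837, limma adjusted p = 7.34e-05). Every library with EpA was below every library of its control in both comparisons. As a description, fatostatin against DMSO stood at -1.81 and both compounds against EpA at -1.69. Both compounds against DMSO stood at -2.53, a level 5.84 times lower, while the sum of the differences of the single compounds was -2.65. The share of *Lgals3* in the summed galectin FPKM, with *Lgals2*, *Lgals7*, and *Lgals12* included, was 2.70% to 2.86% with DMSO. It was 0.44% to 0.60% with both. Of the CD8 and NK cell markers, *Gzma* was called lower in all 4 comparisons, and *Cd8a* in all but fatostatin against DMSO (limma adjusted p = 0.202). *Gzma* averaged 35.7, 23.5, 25.2, and 16.2 FPKM, and *Cd8a* 1.81, 0.80, 1.52, and 0.49 FPKM, in the order DMSO, EpA, fatostatin, both. *Cd8b1* averaged 7.25 to 7.64 FPKM in the groups, and the part of such cells in the *Lgals3* values was not tested. The markers of macrophages, cells known for high galectin-3, summed to 1.28 to 1.40 FPKM with DMSO and to 1.91 to 2.93 FPKM with both compounds. Most of this sum was *Cd68*, which averaged 1.21 FPKM with DMSO and 1.89 FPKM with both. The part of macrophages in the *Lgals3* values was not tested.

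*Lgals3* had the largest difference of the set, and its promoter was examined. The 250 bases before its RefSeq start are shown, a start that lies inside the span of the gene given above, downstream of the first annotated base.
*Lgals3* promoter (chr14:47373610-47373859, plus strand, GRCm38.p6): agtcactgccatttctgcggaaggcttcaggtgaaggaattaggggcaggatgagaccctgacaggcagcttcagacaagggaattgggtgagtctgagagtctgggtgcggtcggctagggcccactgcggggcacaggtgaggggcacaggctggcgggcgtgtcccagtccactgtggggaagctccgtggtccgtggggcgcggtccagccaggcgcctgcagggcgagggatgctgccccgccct
Searched on both strands were the sterol regulatory element TCACNCCAC to which SREBP binds, the E-box CACGTG, and the AP-1 site TGANTCA. None was found in the window from 250 bases before to 50 after the start in the 4 galectins with a RefSeq promoter (*Lgals3*, *Lgals4*, *Lgals8*, and *Lgals9*), so no letters are in capitals. For *Lgals3* and *Lgals8* this window is inside the annotated gene, and sequence at the outer end of the gene was not searched. Of 32851 promoters of this length, 1.24% held the first, 7.15% the second, and 7.81% the third. An exact match is thus rare in any promoter, and whether SREBP acts on these genes was not tested. The *Lgals3* window was 67.0% G and C, where the median promoter had 52.7%.

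*Lgals9*, at chr11:78962974-78984946 on the minus strand, encodes galectin-9, a ligand of Tim-3 on T cells. It was measured at 65.6, 63.0, and 65.5 FPKM with DMSO (mean 64.7 ± 1.45, n = 3) and at 51.6, 51.4, and 51.4 FPKM with EpA (51.5 ± 0.0826). With fatostatin it was 71.9, 72.7, and 74.3 FPKM (73.0 ± 1.20), and with both 53.2, 52.4, and 56.1 FPKM (53.9 ± 1.92). The fatostatin libraries were the highest, and the EpA libraries lay below all of them and below those with DMSO. EpA lowered it by 0.33 (SE 0.0261, 95% CI -0.39 to -0.27, limma adjusted p = 4.49e-06), and in the presence of fatostatin it fell by 0.44 (limma adjusted p = 4.57e-07). Unlike *Lgals3*, it stood higher with fatostatin, by 0.17 against DMSO and by 0.07 for both compounds against EpA, as a description, the latter 0.04 without replicate 3 of both compounds. *Havcr2*, the gene of Tim-3, was at 0.36 to 0.63 FPKM in the group means and did not pass the test in any comparison.

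*Lgals8*, at chr13:12439415-12464944 on the minus strand, encodes galectin-8, which binds sialylated glycans and flags damaged endosomes for autophagy. Its level was 4.51, 4.95, and 4.15 FPKM with DMSO (mean 4.54 ± 0.402, n = 3) and 3.17, 3.31, and 3.08 FPKM with EpA (3.19 ± 0.118). It was 4.46, 4.42, and 4.45 FPKM with fatostatin (4.44 ± 0.0203) and 3.40, 3.09, and 2.80 FPKM with both (3.10 ± 0.301). The libraries thus fell into a higher range without EpA and a lower one with it, and fatostatin libraries lay within the range of DMSO. EpA lowered it by 0.49 (SE 0.075, 95% CI -0.66 to -0.33, limma adjusted p = 0.000559), and with fatostatin present it fell by 0.51 (limma adjusted p = 0.000384). The fatostatin differences were -0.03 and -0.04, and both changed sign when 1 library was left out (0.04 without DMSO replicate 2, and 0.02 without replicate 3 of both compounds). The gene shares 155 of its 3688 exon bases with *Heatr1* on the other strand (mean 19.1 FPKM), and since the use of strand in counting is not stated, reads of that stretch cannot be told apart and the level is uncertain to that extent.

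*Lgals1*, at chr15:78926725-78930465 on the plus strand, encodes galectin-1, which can limit T cell survival and also binds Ras at the membrane. It was the one galectin that rose with EpA. Its level was 753, 764, and 752 FPKM with DMSO (mean 756 ± 6.49, n = 3), 814, 827, and 829 FPKM with EpA (824 ± 8.18), 657, 689, and 686 FPKM with fatostatin (677 ± 17.8), and 730, 722, and 734 FPKM with both (729 ± 6.38). No 2 groups overlapped, with EpA highest, then DMSO, both, and fatostatin. EpA raised it by 0.12, a change of 8.91% (SE 0.0196, 95% CI 0.08 to 0.17, limma adjusted p = 0.000743), and in the presence of fatostatin by 0.11 (limma adjusted p = 0.00182). Fatostatin differed from DMSO by -0.16 and both compounds from EpA by -0.18, and the level with both was 1.04 times lower than with DMSO. In each library 24794 to 31696 reads lay on the gene.

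*Lgals4*, at chr7:28833854-28841708 on the plus strand, encodes galectin-4, best known from the gut epithelium, and was the lowest of the set. Its means were 2.03 ± 0.277 FPKM with DMSO, 1.87 ± 0.203 with EpA, 2.18 ± 0.177 with fatostatin, and 1.88 ± 0.276 with both (n = 3 each), on 154 to 213 reads per library. The libraries ranged from 1.57 to 2.35 FPKM and overlapped between all groups. EpA against DMSO gave -0.11 (95% CI -0.38 to 0.17, limma adjusted p = 0.594), and with fatostatin -0.21 (95% CI -0.49 to 0.07, limma adjusted p = 0.254). The first value was -0.001 without DMSO replicate 1 and -0.02 without EpA replicate 3, and the second -0.09 without replicate 1 of both compounds. No change was called, and the intervals leave room for a change within their bounds.

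The other genes of the family were measured in the same way. *Lgals7*, of stratified epithelia, averaged 2.22 to 2.66 FPKM in the groups on 72 to 130 reads, above the mean of *Lgals4* in each group. *Lgalsl*, a galectin-like gene without lectin activity, averaged 1.07 to 1.27 FPKM. *Lgals3bp*, a secreted glycoprotein that binds galectin-3 and not itself a galectin, averaged 17.5 ± 0.658 FPKM with DMSO, 16.6 ± 0.644 with EpA, 18.8 ± 0.568 with fatostatin, and 18.5 ± 1.10 with both. Of the 4 genes tested, with *Grifin* on 0 to 8 reads, 1 passed in 1 comparison: *Lgals3bp* rose by 0.15 with both compounds against EpA (limma adjusted p = 0.0468), a call that was lost with median ratio scaling. The comparisons of EpA called 0 by limma, with 0 at an unadjusted p below 0.05 and 0 by voom, and fatostatin against DMSO also called 0, with 1 at an unadjusted p below 0.05 and 0 by voom. *Lgals2* and *Lgals12* had 0 to 4 reads in a library and were not tested.

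**Figure D3:**
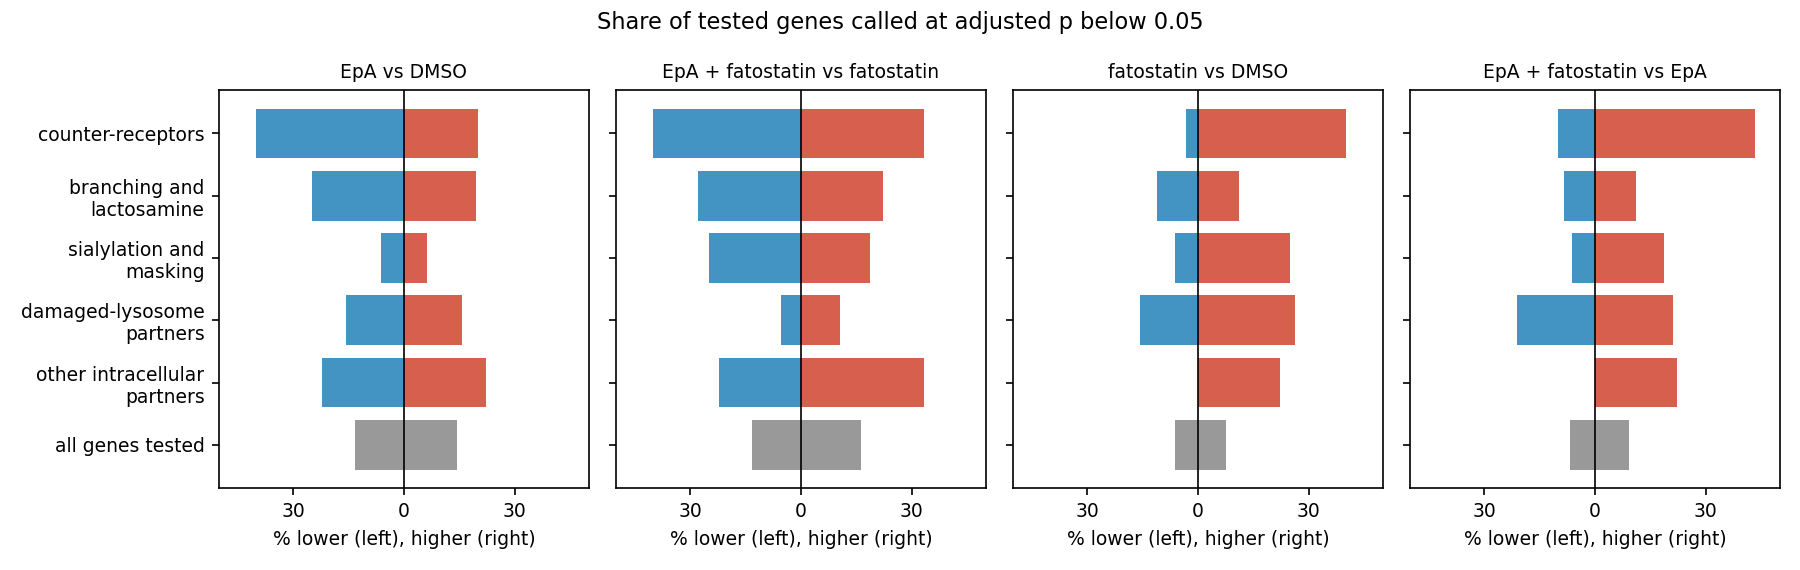
Share of the tested genes of each list that were called lower (left, blue) or higher (right, red) at an adjusted p below 0.05 in the 4 comparisons, with all tested genes in grey. Of 30 counter-receptors, 12 are lower in each comparison of EpA, and 12 and 13 are higher in those of fatostatin.

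The surface glycoproteins that galectins bind were measured as a list of 30 counter-receptors, all of them tested. EpA against DMSO called 6 higher and 12 lower (median -0.08 against 0.00 for all genes), and EpA with fatostatin against fatostatin called 10 higher and 12 lower (median -0.05 against 0.01). Of all genes, 14.3% were called higher and 13.1% lower in the first comparison and 16.2% and 13.3% in the second. On recovered reads, voom called 10 higher and 13 lower in the first. Among the genes that fell with EpA were *Itga4*, the integrin α4 chain, by 0.54 (limma adjusted p = 0.000128) and *Lag3*, an inhibitory receptor, by 0.45 (limma adjusted p = 0.000453). *Lag3* was 15.6 to 16.9 FPKM with DMSO and 11.3 to 12.9 with EpA, with no overlap. *Tfrc*, the transferrin receptor, went the other way and rose by 0.49 with EpA in the presence of fatostatin (limma adjusted p = 8.94e-08), from 148 to 154 FPKM to 206 to 219 FPKM.

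Fatostatin against DMSO called 12 counter-receptors higher and 1 lower, where 7.69% of all genes were called higher and 6.31% lower (14.0% in all). Both compounds against EpA called 13 higher and 3 lower, where 9.22% were higher and 6.79% lower (16.0% in all). The medians of the list were 0.08 and 0.09 against 0.01 for all genes in each. With median ratio scaling, the first of these comparisons called 11 of the list higher and 3 lower and the second 11 higher and 4 lower. Over all genes, 50.4% of the calls of the first were then higher in place of 54.9%, and 46.5% of those of the second in place of 57.6%. *Itga4* rose by 0.72 with fatostatin alone (limma adjusted p = 2.5e-05) and by 0.78 with EpA present (limma adjusted p = 1.24e-05). *Cd40*, a receptor that galectin-9 can bind, rose by 0.43 (limma adjusted p = 0.0113) and 0.54 (limma adjusted p = 0.0029). The list shares *Cd3e*, *Cd3g*, *Cd4*, and *Cd2* with the T cell markers, of which 6 of 8 were lower and 2 higher with EpA.

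The enzymes that build the branched N-glycans, O-glycans, and lactosamine chains to which galectins bind formed a list of 39 genes, 36 of them tested. EpA called 7 higher and 9 lower without fatostatin and 8 higher and 10 lower with it, and fatostatin called 4 higher and 4 lower without EpA and 4 higher and 3 lower with it. In that order 27.4%, 29.5%, 14.0%, and 16.0% of all genes were called, and the medians of the list were -0.01, 0.02, 0.00, and -0.01, against 0.00, 0.01, 0.01, and 0.01 for all genes. *Gcnt2*, which branches lactosamine chains, rose with EpA by 0.62 (limma adjusted p = 0.000486) and *B3gnt3*, which extends them, by 0.54 (limma adjusted p = 0.0012). The group means went from 0.87 to 1.39 FPKM for *Gcnt2* and from 2.23 to 3.30 FPKM for *B3gnt3*. *B4galt4*, a galactosyltransferase, rose by 0.45 (limma adjusted p = 0.00704). With fatostatin present, EpA raised *Gcnt2* by 0.50, *B3gnt3* by 0.40, and *Galk1*, the galactokinase, by 0.27 (limma adjusted p = 0.00182, 0.00651, and 0.000542). *Mgat5*, which makes the branch that galectin-3 favors, rose with fatostatin by 0.18 (limma adjusted p = 0.00699) and by 0.21 in the presence of EpA (limma adjusted p = 0.00312), from 12.3 to 13.5 FPKM with DMSO to 14.5 to 15.02 with fatostatin. *Galnt7*, which starts O-glycans, rose by 0.32 and 0.28 in the same comparisons, *Galk1* fell by 0.20 with fatostatin, and *C1galt1c1*, the chaperone of the core O-glycan enzyme, fell by 0.19 with both compounds against EpA (limma adjusted p = 0.0273).

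Sialic acid caps galactose and can hide it from galectins or, for galectin-8, favor binding. Of 18 genes for capping and its removal, 16 were tested, and EpA called 1 higher and 1 lower without fatostatin and 3 higher and 4 lower with it, where 27.4% and 29.5% of all genes were called. *St3gal1*, which caps core O-glycans, fell by 0.31 in each comparison of EpA (limma adjusted p = 7.63e-06 and 7.18e-06), from 18.0 to 18.1 FPKM with DMSO to 14.3 to 14.6 with EpA. *Slc35a1*, the transporter of the sialic acid donor, rose by 0.14 and 0.19, and *Neu1*, the lysosomal sialidase, by 0.22 with EpA in the presence of fatostatin (limma adjusted p = 0.00753). Fatostatin called 4 higher and 1 lower without EpA and 3 higher and 1 lower with it, where 14.0% and 16.0% of all genes were called. The medians of the list in these 4 comparisons were 0.01, 0.03, -0.03, and 0.07. *Gne*, the first enzyme of sialic acid synthesis, rose by 0.33 and 0.27, *St6galnac4* by 0.27 and 0.18, and *St3gal1* by 0.16 and 0.17 in these comparisons.

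Partners of galectins at damaged lysosomes were measured with 20 genes, 19 of them tested. EpA called 3 higher and 3 lower without fatostatin and 2 higher and 1 lower with it, where 27.4% and 29.5% of all genes were called. In the second comparison voom called 1 higher and 1 lower. *Calcoco2*, the autophagy receptor that galectin-8 recruits, was at 0 FPKM in all 12 libraries and was not tested. Its paralog *Calcoco1* fell by 0.89 with EpA (limma adjusted p = 6.29e-07) and by 0.88 with fatostatin present (limma adjusted p = 5.06e-07). Its level was 7.88 to 8.21 FPKM with DMSO, 4.15 to 4.60 with EpA, 10.5 to 11.7 with fatostatin, and 5.75 to 6.29 with both, and it rose with fatostatin by 0.44 in each comparison (limma adjusted p = 0.00021 and 0.000183). *Rragb*, a GTPase of the lysosomal nutrient-sensing complex, fell by 0.71 with EpA (limma adjusted p = 0.00192), and *Chmp4b*, an ESCRT subunit that seals membranes, rose by 0.18 (limma adjusted p = 0.000925). In the presence of fatostatin EpA raised *Pdcd6* by 0.12 and the ESCRT ATPase *Vps4a* by 0.09. Fatostatin called 5 higher and 3 lower, and 4 and 4 with EpA, where 14.0% and 16.0% of all genes were called. The medians of the list lay between -0.01 and 0.02 in the 4 comparisons. *Pdcd6ip*, or ALIX, which galectin-3 recruits to damaged lysosomes, rose with fatostatin by 0.30 and 0.29 (limma adjusted p = 9.92e-07 and 1.24e-06), from 37.1 to 38.5 FPKM with DMSO to 45.6 to 46.7 with fatostatin. *Optn*, an autophagy receptor, fell by 0.55 and 0.51 (limma adjusted p = 0.00234 and 0.00356).

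Among 10 other intracellular partners, of which 9 were tested, EpA called 2 higher and 2 lower, and 3 and 2 with fatostatin, where 27.4% and 29.5% of all genes were called. With TPM scaling the second comparison called 2 higher and 1 lower, and with median ratio scaling 2 higher and 3 lower. *Bcl2*, the survival protein that galectin-3 resembles in a short motif and binds, fell by 0.22 with EpA (limma adjusted p = 0.000311) and by 0.30 with fatostatin present (limma adjusted p = 2.83e-05). It rose with fatostatin by 0.25 and 0.17 (limma adjusted p = 0.000232 and 0.00313). *Hras*, the Ras protein that galectin-1 holds at the membrane, rose with EpA by 0.15 and 0.22 (limma adjusted p = 0.028 and 0.00355). *Nup98*, of the nuclear pore, rose by 0.17 and 0.19, and *Ctnnb1*, or β-catenin, rose with fatostatin by 0.09 and 0.13 (limma adjusted p = 0.0225 and 0.00376). In each comparison of fatostatin limma called 2 higher and 0 lower in this list, where 14.0% and 16.0% of all genes were called, with 0 lower at an unadjusted p below 0.05 and 0 by voom. The medians of the list lay between -0.01 and 0.04. A difference between the EpA effects with and without fatostatin was called for 0 of the 114 tested genes of the family and partner lists by limma, with 11 at an unadjusted p below 0.05 and 1 called by voom on recovered reads.

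The genes whose pattern was most like that of *Lgals3* were looked for among 10297 others whose mean reached 1 FPKM, by the root mean square difference of centered log2 values over the 12 libraries. *Lgals3* itself varied about its mean by 0.96 on this measure. The nearest was *Rasgrp4*, a Ras activator known from mast cells, at 0.42, with means of 10.7, 9.18, 4.47, and 4.04 FPKM in the order DMSO, EpA, fatostatin, both. Next were *Cd200r1*, an inhibitory receptor, at 0.47 (5.26, 4.84, 2.49, and 2.18 FPKM), *Ifitm1*, an interferon-induced membrane protein, at 0.52 (1.39, 1.73, 0.59, and 0.50 FPKM), *Lyn*, a Src family kinase, at 0.52 (2.30, 1.72, 1.13, and 0.98 FPKM), and *Myo6*, a motor protein, at 0.52 (9.35, 4.08, 5.26, and 2.35 FPKM). The first 4 had their lowest means in the groups with fatostatin, whereas the mean of *Myo6* was lower with EpA than with fatostatin. Among 10298 genes of this level, 4 stood as low as *Lgals3* or lower in both comparisons of fatostatin, a place that follows from the choice of *Lgals3* by these comparisons. The other 3, named after their values were seen, were *Cyp1a1*, a target of the aryl hydrocarbon receptor (2.76 FPKM with DMSO and 0.17 with fatostatin), *Car8* (1.86 and 0.40), and *Gpr15*, a homing receptor (6.57 and 1.12). Of these, *Lgals3* had the highest level with DMSO.

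**Figure D4:**
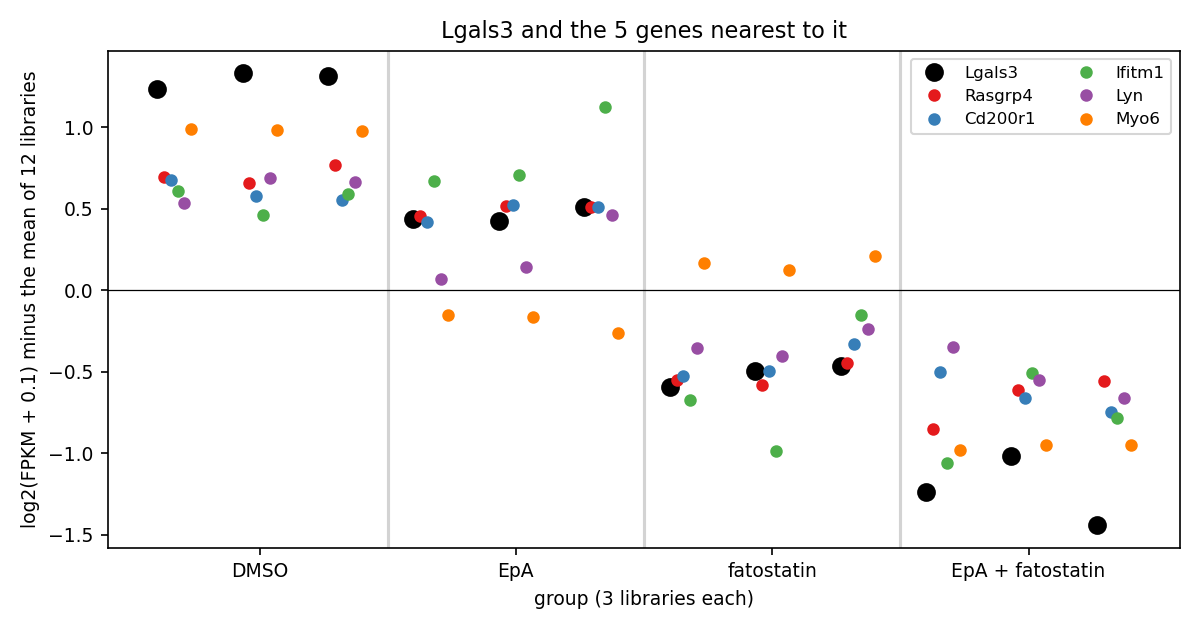
Log2(FPKM + 0.1) less the mean of 12 libraries for *Lgals3* (large black dots) and the 5 genes nearest to it, with 3 libraries per group. *Lgals3* starts highest with DMSO and ends lowest with both compounds, and *Myo6* lies below the other genes with EpA and above them with fatostatin.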

How the data were processed

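Th9 cells in 4 groups of 3 libraries were measured by RNA-seq. The authors deposited FPKM values, for which paired-end reads were cleaned by Trim Galore, mapped by HISAT2 on the GRCm38 genome, and assigned to genes by featureCounts before scaling to gene length and depth. The annotation release and the use of strand are not given in the sources used here. Of 32352 lines, 301 repeated a gene with the same values and were dropped, and 0 columns belonged to no sample. With GENCODE exon lengths, 98.3% to 98.4% of values per library were whole reads within 0.02. The same fit in R 4.3.3 with limma 3.58.1 (log2(FPKM + 0.1), mean of at least 0.1 FPKM over 12 libraries, 1 mean per group, intensity trend, two-sided) gave every test. The pseudocount understates changes of low genes. On simulated data for EpA against DMSO (13593 genes), 95 of 100 planted changes of 1.5-fold and 98 of 100 of 2-fold were called, with 3 other genes. The changes were planted only in genes with a DMSO mean of at least 1 FPKM, so these rates do not cover lower genes. Reads were drawn singly although mates appear to be counted in pairs, so the sampling noise was set lower than that of fragments.

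The galectins, the gene lists, and the tests were chosen with earlier results of these data known. From each partner list and comparison, up to 3 genes were named, those with the largest change among genes called with a mean of at least 1 FPKM, besides all galectins and family genes. One gene that this rule names is not reported here. *Havcr2*, *Gzma*, *Cd8a*, *Cd8b1*, *Cd68*, and *Calcoco2* were named in addition, after their values were seen. Differences of the galectins with fatostatin have no test because they chose the set. The tests of EpA use the same libraries of all 4 groups and are not independent of that choice. Alternatives covered pseudocount, filter, scaling, trend, voom, replicate block, only the groups compared, and each library left out. Replicates of a group differed by 1.63 to 4.11 times the sampling variance, so none was a repeat deposit of another. Promoters were taken from RefSeq (GRCm38.p6) for 4 of the 5 galectins, and coding stretches from GENCODE transcripts. No protein sequences were used here.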

Additional observations from a re-analysis of the deposited data

How the results depend on the processing

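The counts over all genes and the differences of the galectins were recomputed under 22 alternatives, 12 of which left out 1 library (21 for the difference between the EpA effects). The counts of the partner lists were recomputed with TPM scaling, median ratio scaling, and voom alone. All 8 calls and both missed calls of the galectins in the comparisons of EpA stayed on their side of the threshold with their direction: *Lgals3* ranged from -0.87 to -0.80 for EpA against DMSO (highest adjusted p 0.000241) and from -0.82 to -0.61 with fatostatin (highest 0.00371), and *Lgals1* from 0.12 to 0.13 and 0.08 to 0.12 (highest 0.00619 and 0.022). *Lgals9* and *Lgals8* had highest adjusted p of 0.000184 and 0.00373. The level of each galectin over DMSO moved by less than the spread between replicates with TPM or median ratio scaling. A pseudocount of 1 moved *Lgals3* to -1.69 for fatostatin against DMSO and to -1.501 for both against EpA, by its construction.

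Genes past both thresholds were 464, 515, 255, and 273 (EpA, EpA with fatostatin, fatostatin, fatostatin with EpA). They were 141, 161, 89, and 84 with a pseudocount of 1 and 216, 252, 143, and 147 with a mean of at least 1 FPKM, which tests fewer genes. The difference between the EpA effects called 6 genes, 10 with a pseudocount of 0.01, 2 with TPM, 0 with median ratio scaling, 19 with voom, and 0 to 2 without 1 library. Of these past 1.5-fold there were 0, and 1 with a pseudocount of 1, with no filter, with TPM, or with voom, 2 with a pseudocount of 0.01 or no intensity trend, and 0 to 2 without 1 library. The cause was not tested. Voom called 4082, 4517, 2298, and 2638 genes in the 4 comparisons at an adjusted p below 0.05, where the fit on FPKM called 3759, 4051, 1922, and 2199.

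No pairing by replicate number was seen, with correlations of -0.05 to 0.07 over 18 same-numbered pairs. These values cannot show whether samples shared a mouse. A replicate block left 0 genes for the difference between the EpA effects and changed no call of a galectin.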
